A study of Oryza sativa with 6 samples.

Results

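Caffeoyl-CoA O-methyltransferases (CCoAOMTs) were followed in the stem of OsCAld5H1-knockout rice and wild-type rice. These enzymes methylate caffeoyl-CoA to feruloyl-CoA with S-adenosylmethionine as the methyl donor. Feruloyl-CoA is the precursor of guaiacyl lignin and, in grasses, of the ferulate esters that cross-link arabinoxylan. The step lies upstream of coniferaldehyde 5-hydroxylase, the product of OsCAld5H1, which opens the syringyl branch of lignin synthesis. The members were all probes whose name starts with 1 of 5 listed CCoAOMT loci. This gave 9 of the 42418 gene probes of an Agilent 1-colour rice array, for 5 of 29690 loci. Os08g0498100 has 4 probes and Os08g0498400 has 2, while Os06g0165800, Os08g0498600 and Os09g0481400 have 1 each. Their place is known here only from the identifiers, which put 1 locus on chromosome 6, 3 on chromosome 8 and 1 on chromosome 9. All 9 probes are annotated as coding sequence with 3′ untranslated region.

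The edited plants were OsCAld5H1-knockout rice of the cultivar Nipponbare, made with CRISPR/Cas9, in the T2 generation and from a single edited line. The others were wild-type Nipponbare plants, for which no generation is given. Each genotype had 3 biological replicates with 1 array each. All RNA came from the middle part of the second internode from the top at heading. The plants of both genotypes were chamber-grown at 27 °C with a photoperiod of 12 h. Where in the gene the edit lies is not given in these sources, and 1 line cannot separate the edit from other differences of that line.

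Signals are given as log2 of the processed intensity minus the 75th percentile of the same array, so 0 is the level of an upper-quartile spot. Probes differ in how brightly they report a given amount of RNA, so a difference in level between probes does not measure a ratio of transcripts, and all tests compare genotypes at the same probe. Between 73.5% and 77.4% of gene spots in knockout arrays and between 75.1% and 77.1% in wild-type arrays were well above background, and none was saturated. Precision is limited by having 3 arrays per genotype. All knockout arrays lay on one slide and all wild-type arrays on the other; the effects of slide and genotype cannot be told apart. Knockout replicate 1 stood apart, correlating with the other knockout arrays at 0.968 and 0.972 across probes, against 0.984 between those and 0.991 to 0.992 within wild-type. Between knockout and wild-type arrays the correlations ran from 0.961 to 0.981. The signal at transcript 3′ ends over 5′ ends was higher in knockout arrays (median log2 excess 1.92 to 1.93) than in wild-type arrays (1.82 to 1.83) over 454 loci. By an exact permutation test (two-sided) p was 0.1, which is as low as 3 arrays against 3 can go. Of the markers of stem and secondary wall, all 5 were bright enough to test and none passed, with a summed signal of 49.5 to 56.9 times the 75th percentile in knockout arrays and 52.9 to 58.1 times in wild-type arrays. The 4 leaf markers summed to 146 to 222 in knockout and 170 to 280 in wild-type arrays. None passed. At the brightest probe of each, 3 differed by -0.41 to -0.21. The remaining 1, Os12g0274700 (a Rubisco small subunit), was 1.58 higher in knockout arrays at that probe (limma adjusted p = 0.112). The other tested probes of Os12g0274700 differed by 0.02 to 0.48 (limma adjusted p of 0.675 or more). At the 3 loci that read lower, the other tested probes differed by -0.50 to 0.40 for Os09g0346500. They differed by -0.32 to -0.15 for Os12g0291100 and Os01g0600900. The 2 endosperm markers, both glutelins, summed to 0.0862 to 0.0985 in knockout and 0.101 to 0.132 in wild-type arrays. Of them Os10g0400200 differed by 0.10 and Os01g0762500 by -2.18 at its brightest probe (limma adjusted p = 0.654 and 0.0511). That Os01g0762500 probe was well above background on only 1 of the 3 knockout arrays and entered the test through the wild-type arrays. The 2 dimmer probes of Os01g0762500 also read lower in knockout arrays (limma adjusted p = 0.0113 and 0.0439). They were not well above background on any knockout array and entered the test only through the wild-type arrays. For all 3 probes of this locus the size of the difference is therefore only a bound. The part of these measures in the results was not tested. In bulk tissue, fewer cells of a type and less RNA per cell cannot be told apart.

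The targeted gene was examined first. The OsCAld5H1 probe (Os10g0512400) read -4.00, -1.78 and -1.23 in knockout replicates 1, 2 and 3, against -0.54, -0.52 and -0.05 in wild-type replicates 1, 2 and 3. Every knockout array lay below every wild-type array, but the difference of -1.97 ± 0.70 (log2, SE, n = 3 each) did not pass (limma, adjusted p = 0.205). Without knockout replicate 1 it was -1.14.

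Os08g0498100 had the brightest probes of the family. Its probe to the cDNA AK104326 read 5.77, 5.77 and 5.71 in knockout replicates 1, 2 and 3, against 5.62, 5.59 and 5.54 in wild-type replicates 1, 2 and 3. These are processed intensities of 81957, 86542 and 80456 in knockout arrays and 69931, 74694 and 73687 in wild-type arrays, well below the scanner's saturation value (777943 on knockout and 777886 on wild-type arrays). On each array this probe ranked between 138 and 214 of all gene probes by signal. The groups did not overlap, and the replicates were close, with means of 5.75 ± 0.03 in knockout and 5.59 ± 0.04 in wild-type arrays (SD, n = 3 each). The difference was 0.16 (95% interval -0.07 to 0.40), or 1.12-fold (0.951 to 1.32), with a limma adjusted p of 0.419. The 95% interval includes 0.

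The 3 other probes of Os08g0498100 read between 5.35 and 5.81 on every array and differed among themselves in how the replicates lay. The probe to AB110168, assigned like AK104326 to the locus's transcript 02, read 5.69, 5.59 and 5.46 in knockout replicates 1, 2 and 3 and 5.43, 5.35 and 5.38 in wild-type replicates 1, 2 and 3. Again each knockout array was above each wild-type array, by a mean of 0.20 (95% interval -0.07 to 0.46, limma adjusted p = 0.393). The probe to AK071482, assigned to transcript 01, read 5.49, 5.81 and 5.60 in knockout and 5.57, 5.46 and 5.72 in wild-type replicates 1, 2 and 3. Here the groups overlapped, and the difference was 0.05 (95% interval -0.28 to 0.38). The probe to AK104801, also assigned to transcript 01, followed it on every array within 0.044 and differed by 0.03 (-0.30 to 0.36) between the genotypes. The spread at the 2 transcript 01 probes was thus shared between them, with knockout replicate 2 and wild-type replicate 3 high at both. Over the 6 arrays the signal spanned 0.35 at each of them, 0.34 at AB110168 and 0.23 at AK104326. The direction of both transcript 01 probes turned without knockout replicate 2 (-0.04 and -0.06) or without wild-type replicate 2 (-0.01 each).

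**Figure D1:**
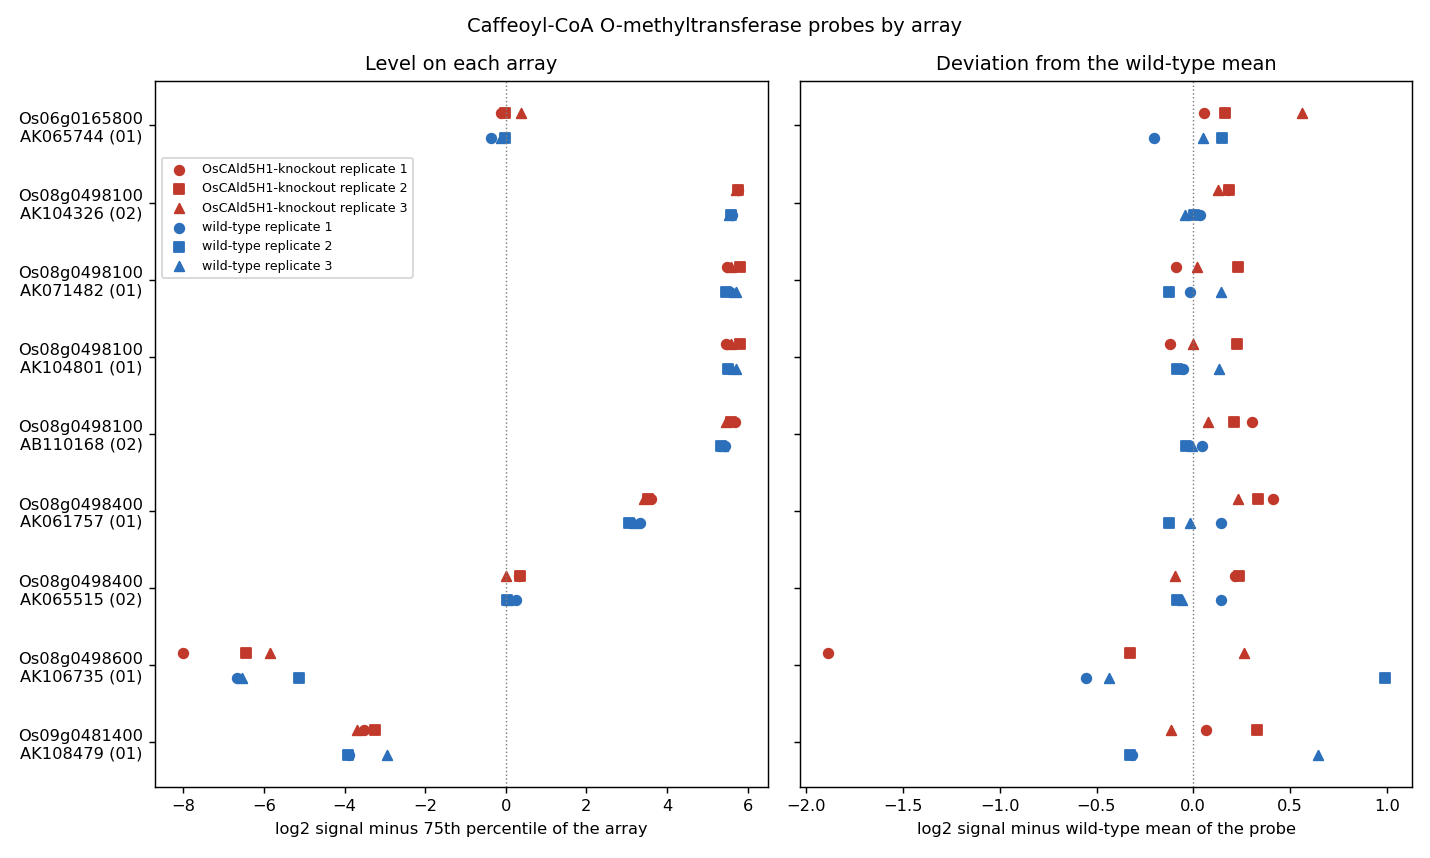
Signal of the 9 CCoAOMT probes on each array. Left, log2 signal minus the 75th percentile of the array; right, the same values minus the wild-type mean of the probe; points are single arrays, knockout (red) above wild-type (blue), with the cDNA and the transcript number of each probe. The knockout points lie to the right of the wild-type points without overlap at AK104326, AB110168 and AK061757, and the points of AK106735 are spread most widely.

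Os08g0498400, which follows in the chromosome 8 cluster, held the one probe of the family with an unadjusted p under 0.05 at the 75th percentile scaling. Its brightest probe, to AK061757 and transcript 01, read 3.60, 3.53 and 3.43 in knockout replicates 1, 2 and 3, against 3.34, 3.07 and 3.18 in wild-type replicates 1, 2 and 3. All knockout arrays were above all wild-type arrays. The difference was 0.33 ± 0.12 (SE, n = 3 each), or 1.25-fold (95% interval 1.02 to 1.53), with an unadjusted p of 0.0340 and an adjusted p of 0.219 over all probes by limma, so it did not pass. With normexp background correction and quantile normalization it was 0.12 (limma adjusted p = 0.526) and the groups overlapped. Under that setting AK061757 lost its unadjusted p under 0.05, and AK104326 and AB110168 of Os08g0498100 reached one (limma adjusted p = 0.189 and 0.205). The unadjusted p of AK061757 was 0.0614 with the replicate block and 0.0667 to 0.130 without knockout replicate 1 or 2 or wild-type replicate 2 or 3. The other probe, to AK065515 and transcript 02, read 0.33, 0.35 and 0.02 in knockout replicates and 0.26, 0.03 and 0.06 in wild-type replicates, in the same order. Those groups overlapped, and the difference was 0.12 (95% interval -0.22 to 0.46). It was 0.07 and 0.06 without knockout replicate 1 or 2, 0.23 without knockout replicate 3, 0.19 without wild-type replicate 1 and 0.08 without wild-type replicate 2.

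Os08g0498600, the last locus of the cluster, was near background. Its single probe read -8.00, -6.44 and -5.85 in knockout replicates 1, 2 and 3, against -6.67, -5.12 and -6.55 in wild-type replicates 1, 2 and 3. In intensity units this was 5.87, 18.3 and 26.7 in knockout and 14.0, 44.4 and 16.9 in wild-type arrays. It was not well above background in knockout replicate 1, so its value there is only a bound and it entered the test through the wild-type arrays. The spread within a genotype exceeded the difference between them. The difference was -0.65 ± 0.66 (SE, n = 3 each), with a 95% interval from -2.25 to 0.95 and a limma adjusted p of 0.640. Single arrays set its size: it was -0.03 without knockout replicate 1, -1.11 without knockout replicate 3 and -0.16 without wild-type replicate 2. With normexp and quantile normalization it was -0.13.

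Of the 2 loci outside chromosome 8, Os06g0165800 read near the upper-quartile level and Os09g0481400 below it. Os06g0165800 read -0.12, -0.01 and 0.39 in knockout replicates 1, 2 and 3, against -0.37, -0.02 and -0.12 in wild-type replicates 1, 2 and 3. The groups overlapped, with knockout replicate 3 high and wild-type replicate 1 low. The difference was 0.26 (95% interval -0.17 to 0.69), with a limma adjusted p of 0.477, and it was 0.11 without knockout replicate 3 and 0.16 without wild-type replicate 1. Os09g0481400 was dimmer, at -3.52, -3.25 and -3.70 in knockout replicates and -3.90, -3.91 and -2.93 in wild-type replicates, in the same order. Wild-type replicate 3 lay above every other array, and the groups overlapped. The difference was 0.09 (95% interval -0.62 to 0.81), with a limma adjusted p of 0.895. It was 0.42 without wild-type replicate 3, and negative without knockout replicate 2 (-0.02), wild-type replicate 1 (-0.07) or wild-type replicate 2 (-0.07).

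As a family, 9 of 9 probes entered the test and 0 passed an adjusted p of 0.05 by limma, while 3.16% of all 32135 tested probes did. One probe, that of AK061757, had an unadjusted p under 0.05, which is 11.1% of the 9, against 19.1% of all tested probes. limma with an intensity trend, with array weights or with the replicate number as a block also called 0 of the 9. The difference was above 0 at 8 of the 9 probes, and 50.6% of all tested probes were above 0. Os08g0498100 holds 4 of the 9 probes and Os08g0498400 holds 2, so the probes are not separate genes. At the brightest probe of each locus 4 differences were above 0 and 1 below. At AK071482, AK104801 and Os09g0481400 the direction turned when some single arrays were left out. The median difference over the 9 probes was 0.12, against 0.0046 over all tested probes. At 3 probes the knockout arrays lay above the wild-type arrays without overlap, 33.3% of the 9, while 13.5% of all tested probes did so. Of these 3, 2 belong to 1 locus. All 9 probes lie in coding sequence with 3′ untranslated region, while the values over all tested probes cover other regions too. The part of the higher 3′ over 5′ signal of knockout arrays was not tested. Probe sequences were not used here, and whether a probe also binds RNA of a paralogue was not tested. With normexp and quantile normalization there were also 3, but Os06g0165800 took the place of AK061757.

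**Figure D2:**
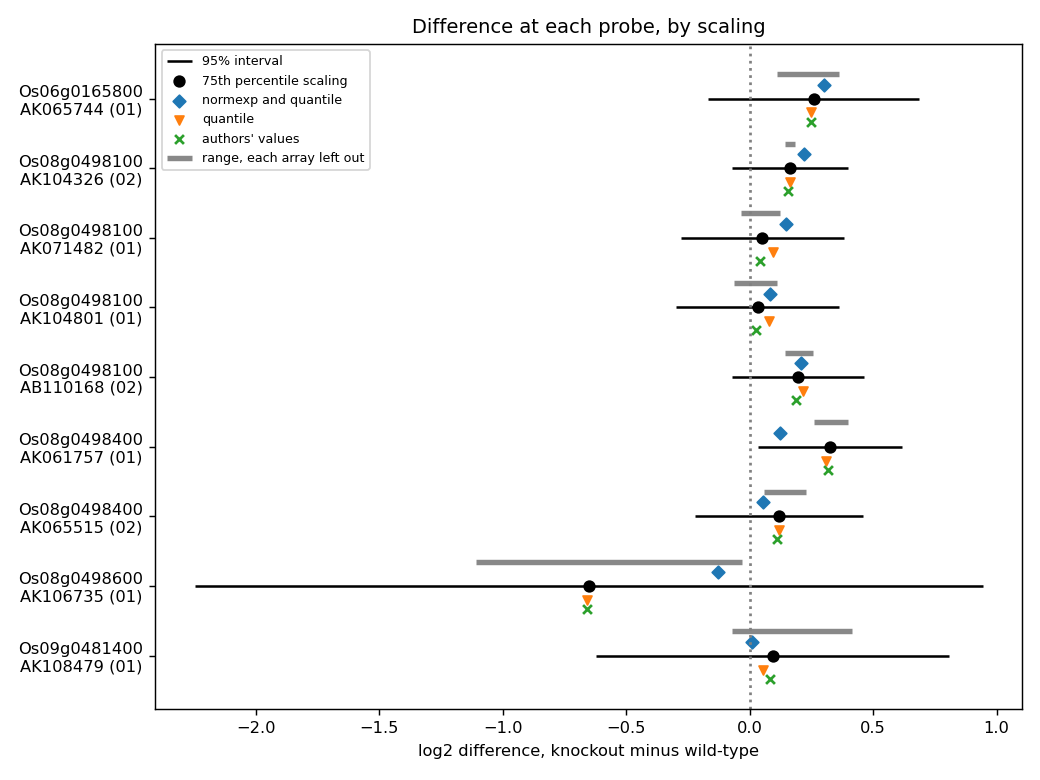
Log2 difference, knockout minus wild-type, at each of the 9 CCoAOMT probes. Black points with lines are the value and 95% interval at the 75th percentile scaling, coloured symbols the other scalings, and grey bars the range when each array was left out. The interval of AK061757 alone stays above 0, and that of AK106735 is the widest, from -2.25 to 0.95.

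Whether the paralogues differed from each other in their change was tested in the 10 pairs of loci, with the brightest probe of each. For each array the log2 value of one was subtracted from that of the other, and the genotypes were compared by an exact two-sided permutation test, whose smallest possible p is 0.1. Os08g0498100 against Os08g0498400 was the one pair to reach it (exact p = 0.1), and after Benjamini-Hochberg adjustment over the pairs every p was 1. In that pair the within-array value was 2.16 to 2.28 in knockout and 2.29 to 2.52 in wild-type arrays, a difference of -0.16. Its direction depended on the scaling. With normexp and quantile normalization Os08g0498100 differed more between genotypes (0.22) than Os08g0498400 (0.12). Quantile normalization on its own (0.16 and 0.31) and the authors' values (0.15 and 0.32) kept Os08g0498400 the larger. With 10 pairs and 3 arrays per genotype no pair could pass the threshold. The pairs that include Os08g0498600 use its value in knockout replicate 1, which is only a bound.

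The probes of transcripts 01 and 02 were contrasted within arrays in the same way at both loci that have them, a comparison chosen after the values were seen. At Os08g0498100 the transcript 02 probes minus the transcript 01 probes gave 0.25, -0.13 and -0.01 in knockout replicates 1, 2 and 3, and -0.02, -0.01 and -0.26 in wild-type replicates 1, 2 and 3. These overlapped (exact permutation test, p = 0.4, adjusted over 2 contrasts 0.4). At Os08g0498400 the value was -3.27, -3.18 and -3.41 in knockout and -3.08, -3.04 and -3.12 in wild-type replicates. The knockout values were all lower, with a difference of -0.21 (exact permutation test, p = 0.1, the smallest possible, adjusted 0.2), which was -0.07 with normexp and quantile normalization. The level of this contrast is set by the probes, so it gives no ratio of the transcripts.

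**Figure D3:**
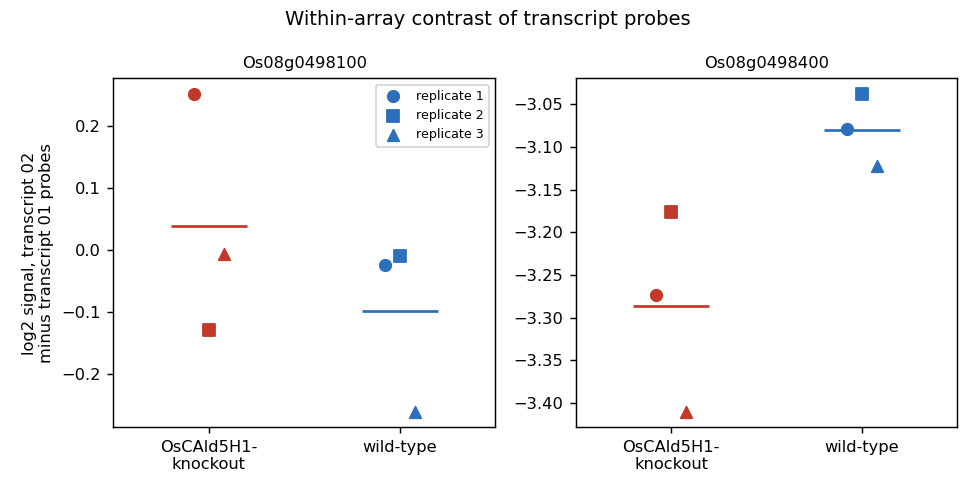
Log2 signal of transcript 02 probes minus transcript 01 probes on each array, for Os08g0498100 (left) and Os08g0498400 (right). Points are arrays, knockout in red and wild-type in blue, symbols mark the replicate number and lines are means, and the vertical axes differ. At Os08g0498400 the knockout values, -3.41 to -3.18, lie below the wild-type values, -3.12 to -3.04.

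No other locus with a probe on the array lies, by identifier, between the 3 chromosome 8 loci. Of the 3 loci on each side, 5 of 6 were bright enough to test, and 0 were called by limma, beside 3.41% of all tested loci. An unadjusted p under 0.05 was found for 3 of these 5, against 19.6% of all tested loci. The neighbours differed by -0.53 to 0.91. The next locus on one side, Os08g0497900, differed by 0.36 ± 0.23, and on the other, Os08g0499000, by 0.91 ± 0.17 (SE, n = 3 each; limma adjusted p = 0.452 and 0.0539). The tested flanking loci read below 0 on average in both genotypes.

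Over the 6 arrays, the loci whose pattern was most like the AK104326 probe were Os11g0672800 (Pearson r = 0.997), Os03g0707600 (0.996) and Os01g0523000 (0.996). They were taken from 6655 loci brighter than the 75th percentile, of which 151 (2.27%) had an r above 0.9. These coefficients describe 6 arrays that share slides by genotype and carry no test.

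The other enzymes of the monolignol pathway were taken from a list of 30 loci, named from rice nomenclature and not from the files. Of these 24 were tested, 1 rose, 0 fell and 23 did not pass, beside 3.41% of all tested loci called (2.17% higher and 1.24% lower). An unadjusted p under 0.05 was found for 6 (25.0%), against 19.6% of all tested loci. The targeted gene is among the 6. Over all 47 tested probes of these loci it was found at 7 (14.9%), against 19.1% of all tested probes. The median difference was 0.01, against 0.0014 over all loci and 0.16 over the 5 CCoAOMT loci. The one that rose was the homologue CAld5H2 (Os03g0112900), by 1.03 ± 0.13 (SE, n = 3 each; limma adjusted p = 0.0190), at a dim mean signal of -5.27 in knockout and -6.30 in wild-type arrays. It no longer passed with normexp and quantile normalization (0.33, limma adjusted p = 0.101), with the replicate block (1.03, adjusted p = 0.0531) or without wild-type replicate 1, 2 or 3 (1.01 to 1.06, adjusted p = 0.0865 to 0.0965). Apart from the targeted gene, the largest differences were -1.45 ± 0.98 and -1.26 ± 0.99 at Os02g0467000 and Os02g0467600, listed as cinnamate 4-hydroxylases, and neither passed (adjusted p = 0.474 and 0.539). CAldOMT1 (Os08g0157500), the other O-methyltransferase of the pathway, acts after OsCAld5H1. It differed by 0.15 ± 0.11 at its brightest probe (limma adjusted p = 0.507), against 0.16 at the brightest probe of Os08g0498100. The other tested probes of CAldOMT1 differed by -0.06 and -0.02, and those of Os08g0498100 by 0.03 to 0.20.

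**Figure D4:**
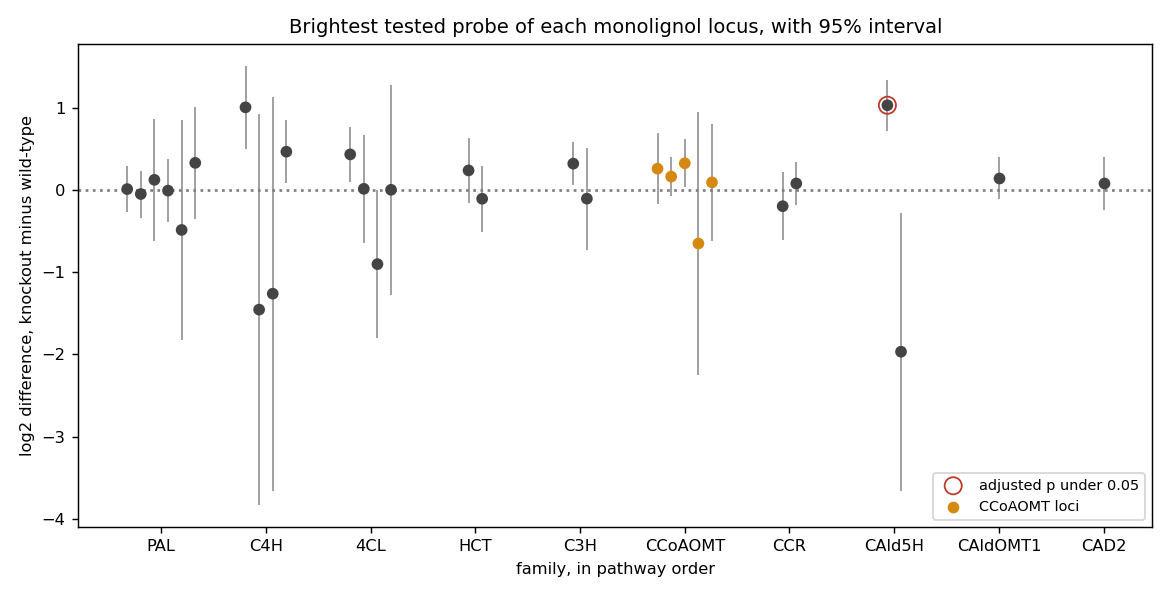
Log2 difference, knockout minus wild-type, at the brightest tested probe of 24 monolignol loci and the 5 CCoAOMT loci (orange), ordered by family along the pathway, with 95% intervals. The one circled point passed an adjusted p of 0.05 and is CAld5H2, at 1.03; the CCoAOMT points run from -0.65 to 0.33.

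The methyl cycle supplies S-adenosylmethionine and clears S-adenosylhomocysteine, the product that all such methyltransferases release. All 7 listed loci of this cycle, again named from nomenclature, were tested and 0 were called by limma, beside 3.41% of all tested loci. At the brightest probe of each, 0 had an unadjusted p under 0.05, against 19.6% of all tested loci. A difference above 0 was found at 50.6% of all tested probes, a share over probes and not over loci. At the brightest probes of the 7 loci 6 were above 0 and 1 below, with a median of 0.10, against 0.0014 over all loci. The largest at these probes were 0.36 ± 0.83 at Os01g0293000 and 0.18 ± 0.12 at Os01g0323600, both listed as S-adenosylmethionine synthetases, and -0.11 ± 0.12 at Os03g0815200, listed as methylenetetrahydrofolate reductase (log2, SE, n = 3 each). The locus listed as S-adenosylhomocysteine hydrolase, Os11g0455500, differed by 0.10 ± 0.12. Over all 23 tested probes of the 7 loci 0 were called, beside 3.16% of all tested probes. An unadjusted p under 0.05 was found at 2 of the 23 (8.7%), against 19.1% of all tested probes. The 2 were dimmer probes of Os01g0323600, at 0.67 ± 0.13, and of Os12g0624000, listed as methionine synthase, at 0.73 ± 0.16 (limma adjusted p = 0.0566 and 0.0754).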

How the data were processed

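Cy3-labelled cRNA of 6 samples was hybridised to 1 array each, per the labels' protocols. Agilent Feature Extraction 12.0.3.1 made the deposited scanner files, per the file headers: they give the intensity of each spot after background subtraction and detrending, with 0/1 flags. The deposited table of the authors holds linear intensity, which equals that signal times 1 constant per array (1.51 to 1.72; medians 376 to 388).

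The log2 intensity minus each array's 75th percentile over gene spots was used. Spots of 590 design controls and outlier spots (5 to 9 per array) were removed, and the spots of each probe averaged. A probe was tested where well above background on all 3 arrays of at least 1 genotype. Genotype was fitted with limma 3.58.1 in R 4.3.3, with a two-sided moderated test and Benjamini-Hochberg adjustment over 32135 probes, at a threshold of 0.05. The brightest tested probe stood for a locus. Named genes were all member probes, called loci and the 3 largest differences of each list at its brightest probes, the targeted gene and the 3 loci most like the brightest member; CAldOMT1, Os11g0455500 the marker loci, dimmer probes of listed loci and the chromosome 8 neighbours were chosen after their values were seen. Members and lists were chosen with earlier results of these data known. None of the listed identifiers occurs in the reference table. Replicate numbers were not taken to pair the samples. Alternatives were normexp (offset 50, on median spot signal, as no mean is given) with quantile normalisation after it, that normalisation on its own, the authors' values, other filters, limma variants and leaving out each array. The fit was tested on simulated data.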

Additional observations from a re-analysis of the deposited data

How the results depend on the processing

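No CCoAOMT probe was called under any alternative tried, from an adjusted p under 0.1 to each array left out, and 0 methyl cycle loci under the alternatives run for them (not the threshold of 0.1). Adjusted p values over the alternatives ran from 0.189 to 0.731 for Os08g0498100, 0.176 to 0.547 for Os08g0498400, 0.266 to 0.776 for Os06g0165800, 0.380 to 0.976 for Os08g0498600 and 0.443 to 0.985 for Os09g0481400. The stricter filter left out Os08g0498600. With single arrays left out, the difference ran from -0.072 to 0.42 for Os09g0481400, from -0.036 to 0.12 at AK071482 and from -0.062 to 0.11 at AK104801, the results whose direction turned. The CAld5H2 call was lost (0 called) with normexp and quantile normalization, the replicate block and without any 1 wild-type array; other arrays left out gave 1. Calls over all probes were 1017, against 645 with no filter, 458 with the replicate block, 1987 at an adjusted p under 0.1 and 143 to 1539 with single arrays left out. With normexp and quantile normalization together 456 rose and 494 fell, with quantile alone 558 and 440, against 601 and 416; the causes were not tested. Same-numbered replicates correlated at -0.17 to 0.41 in their deviations, and 2 of 6 samples correlated best with their own number, so the numbers were not taken to pair samples. Slide as a block could not be fitted.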
